A study of Mus musculus with 20 samples.

Results

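The 56 genes described here were taken as liver-specific, as genes that hepatocytes, the main cells of the liver, express strongly. Some of them, such as Fabp1 and Cps1, are also expressed by the small intestine. Their transcripts were counted in RNA from the heart apex. The 56 genes were picked by name, with earlier results of these data known, as liver genes that were low in the hearts of mice with amyloid, so their levels in those mice are a description and not a finding. All 56 of the 56 names were present once each among the 25308 genes of the table, and all 56 were among the 14477 genes that passed the filter on low counts.

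RNA sequencing of the heart apex was done in 20 mice to see how cardiac amyloid, and the circulating light chain without deposits, change the tissue. The 9 AL mice had the genotype DH-lambdaS (called λS-DH here) and amyloid deposits in the heart, after a single intravenous injection of the recombinant variable domain of the same light chain, as fibrils or in soluble form. The 4 LS mice had the same genotype, were not induced and had no deposits. The 7 Ctrl mice had the genotype DH (DH-LMP2A) and lacked the human gene. All 20 mice thus share the DH-LMP2A alleles, with which plasma cells form without immunoglobulin heavy chains and secrete free light chains. λS-DH mice carry the complete λS light chain cDNA of 1 patient in the Ig kappa locus, made in ES cells that were injected into C57BL/6 blastocysts, so the human protein comes from B-lineage cells and not from the heart or the liver. Ctrl mice are described as age-matched, and individual ages and sexes are not given in the labels.

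The first sequencing run held AL1 to AL7, LS1 to LS4 and Ctrl1 to Ctrl4, with total counts of 43993277 to 62668146 per mouse, and the second run held AL8, AL9 and Ctrl5 to Ctrl7, with 7867642 to 11794615. A floor of 3 counts equals 0.0474 to 0.0748 CPM (counts scaled to library size by TMM) in the first run and 0.231 to 0.356 CPM in the second, and covers counting error only. Libraries of the first run are numbered 25 to 32 for AL mice and 41 to 48 for LS and Ctrl mice, so that group and library number cannot be told apart there. The 10 cardiomyocyte genes summed to between 49540 and 81130 CPM in every mouse. The libraries of Ctrl1, Ctrl3, Ctrl4, LS1 and LS3 stood apart from the other 15 by their liver transcripts, and the group comparisons are therefore given with and without them.

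Hepatocytes secrete most proteins of the blood plasma, among them albumin, apolipoproteins and clotting factors, and they take up and break down amino acids, bile acids, hormones and drugs. These genes depend on a small circle of liver transcription factors that includes HNF1 and HNF4. Part of the programme differs between the sexes in mice, because the rhythm of growth hormone release differs, so that some cytochromes P450, sulfotransferases and carrier proteins are made mainly in female and others mainly in male liver.

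The promoters of 4 of the most abundant members are shown because they carry a short HNF1 motif close to the start of a gene that moved with the others from mouse to mouse. Sequences are the 100 bases before the gene start in RefSeq on GRCm38.p6, printed 5′ to 3′ on the gene's own strand, with the motif GTTAAT or its reverse complement ATTAAC in capitals. The Alb promoter lies at chr5:90460770-90460869 on the plus strand, that of Gc at chr5:89457899-89457998 on the minus strand, that of Fga at chr3:83026053-83026152 on the plus strand and that of Fgb at chr3:83049864-83049963 on the minus strand. Gene coordinates given further on come from GENCODE, whose start differs from that of RefSeq for Alb, where it lies further downstream, and for Fga, where it lies upstream, so that the Fga motif is inside the gene as GENCODE draws it.
Alb: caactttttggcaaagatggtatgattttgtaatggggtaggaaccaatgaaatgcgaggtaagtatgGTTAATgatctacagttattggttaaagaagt
Gc: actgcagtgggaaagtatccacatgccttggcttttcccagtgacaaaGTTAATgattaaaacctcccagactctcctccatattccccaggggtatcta
Fga: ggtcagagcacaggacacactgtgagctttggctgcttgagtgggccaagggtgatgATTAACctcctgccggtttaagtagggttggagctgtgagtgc
Fgb: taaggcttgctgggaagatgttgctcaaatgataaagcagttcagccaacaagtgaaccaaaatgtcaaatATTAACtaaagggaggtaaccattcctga
The motif began 32, 52, 43 and 29 bases before the RefSeq gene start in these 4 promoters. Promoters of 45 members were matched by symbol. Searched on both strands of the 250 bases before the start, GTTAAT stood in 10 of the 45 (22.2%) and in 6.43% of all 32851 promoters. CAAAGTC, a core of HNF4 sites, stood in 17.8% of member promoters and 3.84% of all, TATAAA in 37.8% and 12.4%, and CCAAT in 42.2% and 33.8%. These shares count letters in a window and were not tested.

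The summed level of the 56 genes differed widely between hearts of the same group. It was 4.46, 3.79, 1.49, 11.04, 2.60, 55.9, 7.44, 3.20 and 1.12 CPM in AL1 to AL9, 291, 9.26, 264.5 and 27.2 CPM in LS1 to LS4, and 382, 52.5, 470.3, 245, 1.38, 1.20 and 0.845 CPM in Ctrl1 to Ctrl7. Ctrl3, Ctrl1, LS1, LS3 and Ctrl4 were the highest 5, and AL6, Ctrl2 and LS4 followed at a distance. The groups overlapped at both ends, because Ctrl5 to Ctrl7 lay level with or below the lowest AL mice and AL6 above LS2, LS4 and Ctrl2. At its highest, in Ctrl3, the sum was 0.0429% of all counts of the heart, and at its lowest, in Ctrl7, 0.000093%. The mean of the AL mice was 10.1 CPM ± 17.45 (SD, n = 9). It was 148 CPM ± 150.4 (SD, n = 4) for LS and 164.7 CPM ± 199.9 (SD, n = 7) for Ctrl mice, so that the SD exceeded the mean in every group.

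**Figure D1:**
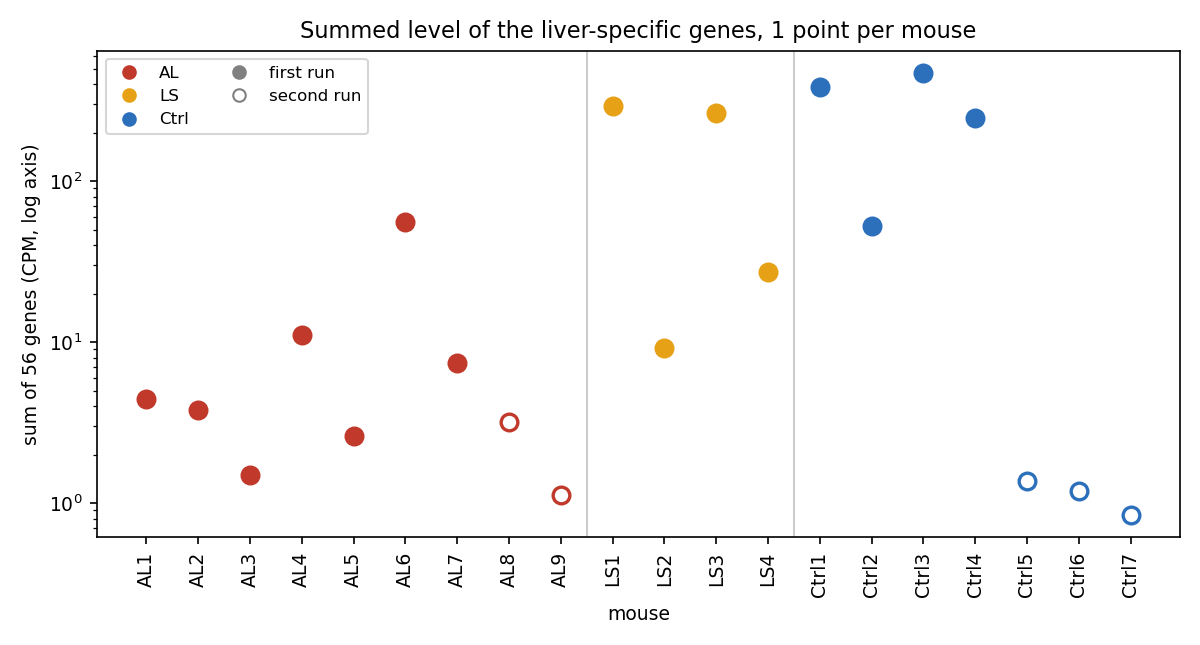
Summed level of the 56 liver-specific genes in CPM (log axis), 1 point per mouse, by group, with filled points for the first sequencing run and open points for the second. 5 LS and Ctrl mice lie at 245 to 470.3 CPM, AL6 and Ctrl2 lie at 55.9 and 52.5 CPM, and the 5 mice of the second run lie at 0.845 to 3.20 CPM whatever their group.

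The sums differed between groups within the first run only in part. There, 6 of the 7 AL mice were at 11.04 CPM or below and the 8 LS and Ctrl mice ranged from 9.26 to 470.3 CPM. In the second run the groups overlapped, with AL8 and AL9 at 3.20 and 1.12 CPM and Ctrl5 to Ctrl7 between 0.845 and 1.38 CPM, and 29 of the 56 genes had 0 counts in all 5 mice. At that depth a summed level like that of AL1 would give few counts per gene, and differences between single members were not detectable in the second run. In bulk tissue, fewer cells of a type and less RNA per cell cannot be told apart, and the spread of these sums describes RNA in the sample only.

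Plasma carriers were the most abundant of the 5 classes, with Alb alone making up 32.01% to 45.7% of the summed level in the 8 mice with the highest sums, but 0.849% in AL4. Alb (ENSMUSG00000029368, chr5:90460897-90476602 on GRCm38), which encodes serum albumin, the main protein of plasma, was the only member with a count in all 20 mice. It had 113, 2.94, 93.4 and 8.72 CPM in LS1 to LS4, 0.0769 at the lowest, 21.0 at the median and 215 at the highest in Ctrl mice, and 0.0861, 0.711 and 21.7 in AL mice. The highest AL mouse, AL6, was level with Ctrl2, and Ctrl5 to Ctrl7 had 1 count each. Against the merged LS and Ctrl mice its log2FC in AL mice was -4.46 (SE 1.02).

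Apoa1, the main protein of high-density lipoprotein, had 11.7, 0.358, 12.3 and 1.52 CPM in LS1 to LS4. It ranged from 0 over a median of 2.80 to 20.9 CPM in Ctrl mice and from 0 over 0.197 to 7.18 CPM in AL mice. The highest AL mouse for Apoa1 was AL4, not AL6, and AL4 reached the level of Ctrl4 at an Alb level of 0.0937 CPM. With a log2FC of -2.46 (SE 0.915) Apoa1 had the smallest difference of the 56 genes. Gc, the vitamin D binding protein, had 11.4, 0.379, 11.4 and 1.16 CPM in LS1 to LS4, 0, 1.46 and 19.0 CPM as lowest, median and highest in Ctrl mice, and 0, 0.118 and 2.93 CPM in AL mice. Ttr, which carries thyroid hormone and retinol binding protein, kept one of the 3 highest medians in AL mice, 0.394 CPM, with 0 and 2.95 CPM at the ends. It had 9.19, 0.82, 8.54 and 1.45 CPM in LS1 to LS4 and 0.0769, 1.81 and 18.1 CPM in Ctrl mice, so that the lowest Ctrl mice, those of the second run, lay below the AL median.

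A1bg, a plasma glycoprotein that mouse liver makes mainly in females, split the high mice. It had 6.02, 0.0421, 3.02 and 0 CPM in LS1 to LS4, and 0, 0.038, 6.88, 1.87, 0, 0 and 0 CPM in Ctrl1 to Ctrl7, so that Ctrl1 with its high Alb had none. A1bg had 0 counts in all 9 AL mice, which puts it at least 208-fold lower there than in the mean of the LS and Ctrl mice (floor of 3 counts over the AL group, 0.00781 CPM). Per kilobase of exon, the mean level over the 20 mice was 15.5 CPM for Alb, 6.20 for Apoa2, 5.13 for Fabp1, 3.43 for Apoa1 and 3.02 for Ttr, and it went down to 0.0491 for Klkb1.

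The coagulation class holds 12 genes for clotting factors, their inhibitors and the fibrinolytic proenzyme plasminogen. The 3 chains of fibrinogen, the precursor of fibrin, are its most abundant members, and their genes lie side by side on chromosome 3. Fga (chr3:83026076-83033627) had 6.31, 0.168, 7.78 and 0.385 CPM in LS1 to LS4, 0, 2.64 and 8.90 CPM as lowest, median and highest in Ctrl mice, and 0, 0.0474 and 1.27 CPM in AL mice. Fgb (chr3:83040141-83049863) had 5.24, 0.105, 6.58 and 0.732 CPM in LS1 to LS4, 0, 2.19 and 8.48 CPM in Ctrl mice, and 0, 0 and 1.00 CPM in AL mice, 5 of which had no count. Fgg (chr3:83007724-83015049) had 5.197, 0.189, 6.30 and 0.559 CPM in LS1 to LS4, 0, 1.83 and 7.43 CPM in Ctrl mice, and 0, 0.0628 and 0.764 CPM in AL mice. In all 3 chains Ctrl3 was the highest mouse, LS1, LS3, Ctrl1 and Ctrl4 came next, Ctrl2 followed at 1.83 to 2.64 CPM, and AL6 was behind it. Their log2FC in AL against merged controls were -4.27 (SE 0.977), -4.59 (SE 1.04) and -4.49 (SE 0.91). Over the 12 coagulation genes the median log2FC was -3.95, and F2 (prothrombin), Plg (plasminogen), Serpinc1 (antithrombin) and Proc (protein C) were among them with -3.76, -4.42, -3.56 and -3.36.

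The amino acid class holds 12 enzymes of methionine, tyrosine, tryptophan, histidine and urea metabolism. Mat1a, which makes S-adenosylmethionine in liver, had 8.10, 0.21, 8.64 and 0.559 CPM in LS1 to LS4, 0, 0.97 and 12.2 CPM as lowest, median and highest in Ctrl mice, and 0, 0.0628 and 1.47 CPM in AL mice. Bhmt, which remethylates homocysteine, had 8.24, 0.294, 4.52 and 0.616 CPM in LS1 to LS4, 0, 1.12 and 11.6 CPM in Ctrl mice, and 0, 0.0169 and 0.864 CPM in AL mice. Cps1, the entry enzyme of the urea cycle, which the small intestine also expresses, had 4.98, 0.0841, 4.83 and 1.00 CPM in LS1 to LS4, 0, 1.33 and 7.92 CPM in Ctrl mice, and 0, 0.0844 and 0.824 CPM in AL mice. In all 3 genes AL6 was the highest AL mouse. It lay below Ctrl2 for Bhmt and Cps1 and above it for Mat1a, where Ctrl2 had 0.97 CPM. Tat, the tyrosine aminotransferase that glucocorticoids induce, was less uneven among AL mice, from 0 over 0.209 to 0.422 CPM, and had 2.55, 0.189, 4.83 and 0.52 CPM in LS1 to LS4 and 0, 1.16 and 6.66 CPM in Ctrl mice. The class had a median log2FC of -3.83 in AL against merged controls.

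The 13 cytochromes P450 were the most variable class between the high mice. Cyp3a41a, a steroid and drug hydroxylase of female liver, had 11.2, 0.021, 8.58 and 0.0578 CPM in LS1 to LS4 and 0.0622, 0.0951, 10.5, 6.18, 0, 0 and 0 CPM in Ctrl1 to Ctrl7. AL mice had 0, 3, 0, 0, 1, 0, 1, 0 and 0 counts of it, so that AL6, the highest AL mouse for Alb, had no read of Cyp3a41a. Cyp3a11, the main drug-inducible P450 of the same family, had 3.07, 0.105, 0.326 and 0.116 CPM in LS1 to LS4, 0, 0.209 and 6.61 CPM as lowest, median and highest in Ctrl mice, and 0, 0.0438 and 0.844 CPM in AL mice. LS3 was near LS1 in Alb and far below it in Cyp3a11. Cyp4a14, a fatty acid hydroxylase under PPARα, had 2.39, 0.021, 1.87 and 0.0193 CPM in LS1 to LS4, 0, 0.0769 and 5.86 CPM in Ctrl mice, and 0, 0 and 0.623 CPM in AL mice. Cyp2c37, an arachidonic acid metabolising enzyme, had 1 count in AL1, 1 in AL6 and 0 in the other 7 AL mice, with 1.25, 0, 1.65 and 0.0963 CPM in LS1 to LS4 and up to 0.892 CPM in Ctrl mice. Reads of closely related P450 genes (the Cyp2c, Cyp2d, Cyp3a and Cyp4a families), and of the Mup and Ugt1a genes, can be divided between copies by the estimation of counts, so single members of these families are uncertain.

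The last 10 genes serve transport and other metabolism. Fabp1, the fatty acid binding protein of liver and small intestine, had 8.17, 0.252, 7.80 and 0.905 CPM in LS1 to LS4, 0, 1.62 and 13.4 CPM as lowest, median and highest in Ctrl mice, and 0, 0.0656 and 1.99 CPM in AL mice. Slco1b2, a carrier for bile acids and drugs in the hepatocyte membrane, had 2.43, 0, 2.24 and 0.212 CPM in LS1 to LS4, 0, 0.38 and 3.94 CPM in Ctrl mice, and 0, 0.0749 and 0.643 CPM in AL mice. G6pc, the glucose-6-phosphatase that releases glucose, had 1.25, 0.021, 1.22 and 0.481 CPM in LS1 to LS4, 0, 0.285 and 3.76 CPM in Ctrl mice, and 0, 0 and 0.332 CPM in AL mice. Ctrl1 and Ctrl3 had the highest G6pc, at 3.76 and 3.71 CPM, above LS1, LS3 and Ctrl4. Ugt1a5, a glucuronidating enzyme, and Sult2a1, a bile acid and steroid sulfotransferase of female liver, had 0 counts in all AL mice and were at least 58.0-fold and 36.6-fold lower there than the mean of the LS and Ctrl mice. Sult2a1 had 0.472 CPM in LS1, 1.41 in LS3, 0.673 in Ctrl3 and 0.59 in Ctrl4, and 0 counts in each of the other 16 mice, Ctrl1 among them.

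**Figure D2:**
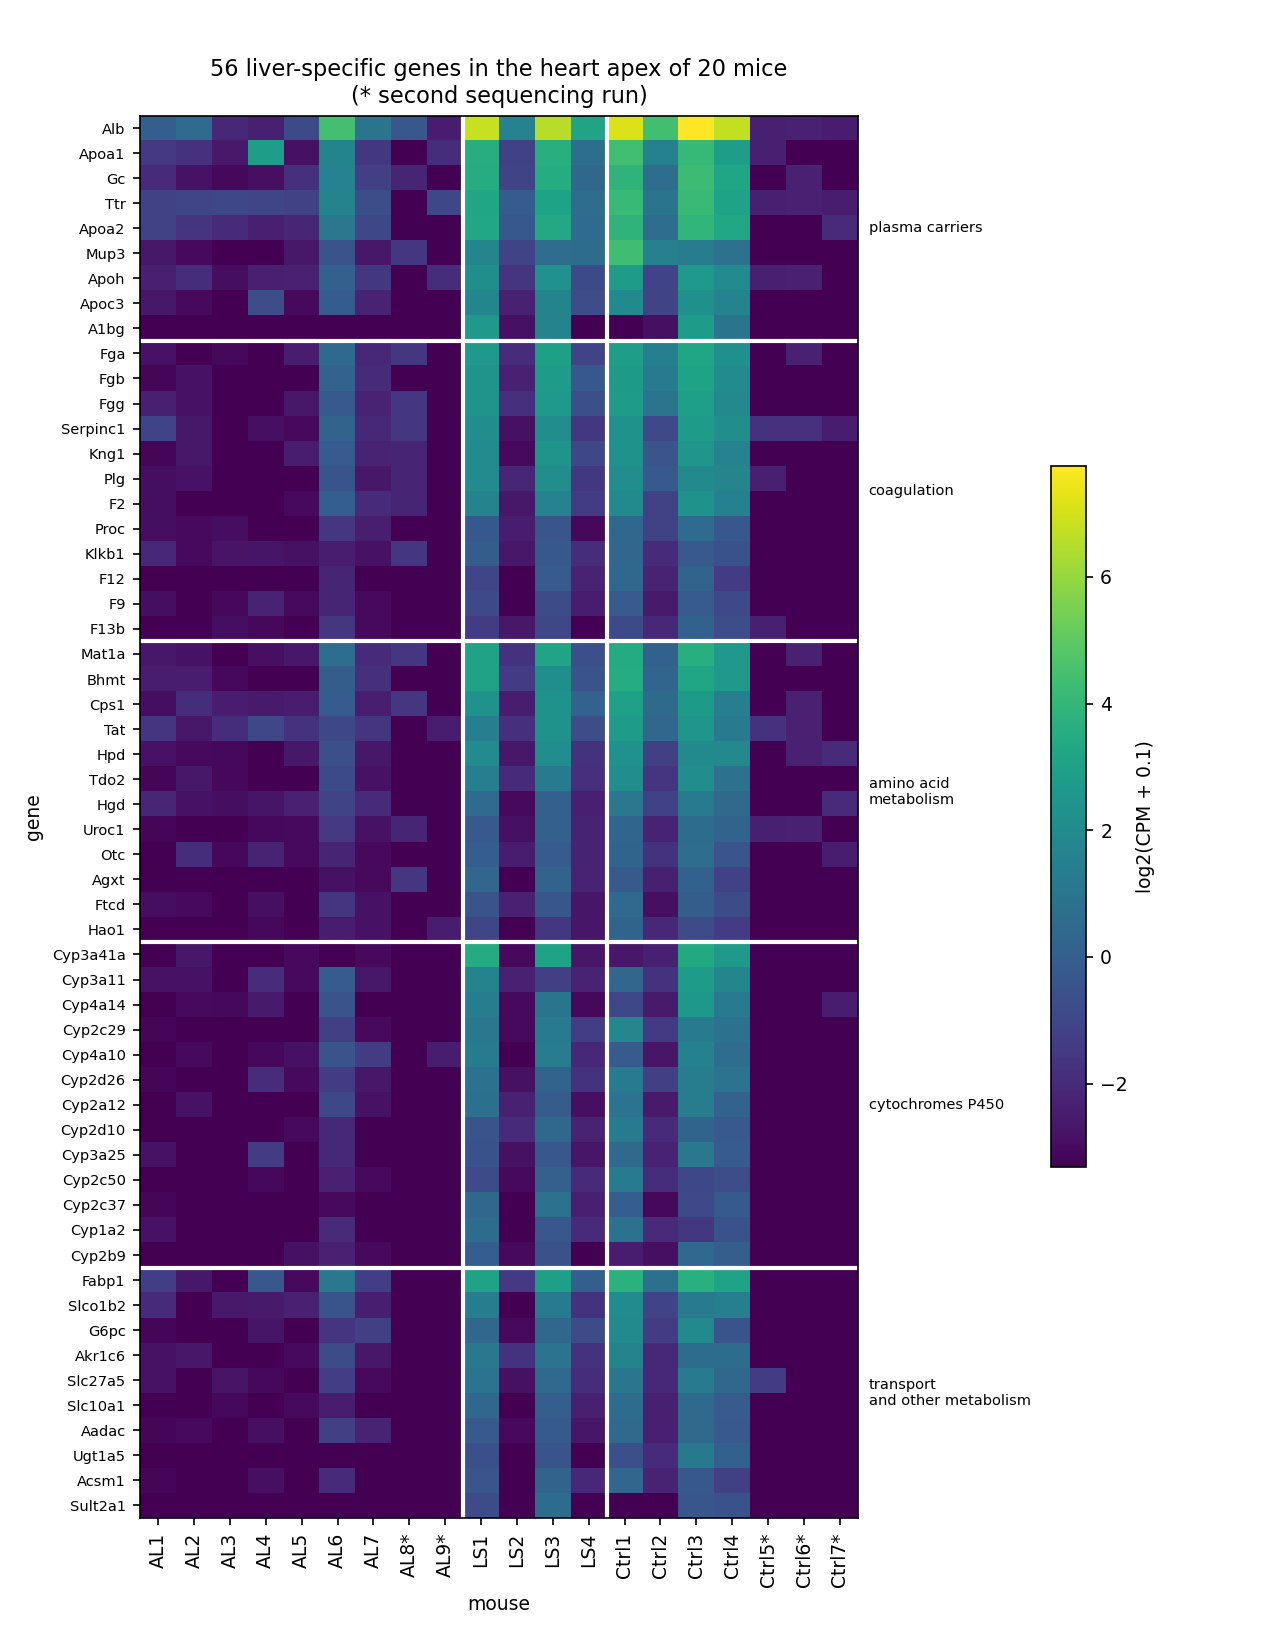
Level of each of the 56 genes in each mouse as log2(CPM + 0.1), with genes in rows by class and mice in columns by group, and an asterisk for the second sequencing run. Columns LS1, LS3, Ctrl1, Ctrl3 and Ctrl4 are bright over nearly all rows, and AL6 and Ctrl2 are intermediate. LS1, LS3, Ctrl1, Ctrl3 and Ctrl4, which have the highest sums of these genes, lie above the other 15 mice in 49 of the 56 rows.

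Most members were highest in the same mice. In 49 of the 56 genes LS1, LS3, Ctrl1, Ctrl3 and Ctrl4 lay above all other 15 mice, against 1.17% of all 14477 genes tested (170 genes, these 49 included). These mice were set apart by the summed level of the same 56 genes, so this count is partly built in and is a description. The 7 exceptions were A1bg, Cyp2b9, Cyp3a41a, Sult2a1, Cyp3a11, Cyp4a14 and Mup3. Among the other 15 mice AL6 was the highest for 31 members, Ctrl2 for 16 and LS4 for 3. In AL mice 229 of the 504 values of a member in a mouse were 0. Zeros also went with the run. Members with a count numbered 22 to 52 in AL, 44 to 56 in LS and 54 to 56 in Ctrl mice of the first run. In the second run, at lower depth, they numbered 7 to 14 in AL and 8 to 11 in Ctrl mice.

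Within the 5 highest mice part of the members stood in similar proportions to Alb and others did not. The median spread of the ratio to Alb was 2.2-fold, where Alb itself lay between 93.4 and 214.8 CPM. Genes outside the 56 were not compared in this way. The level of a gene as a percentage of Alb stayed within a factor of 2 for 25 of the 55 other members and within a factor of 3 for 37. F2 varied least, by 1.35-fold, and Gc lay between 8.79% and 12.2% of Alb and Serpinc1 between 3.11% and 4.54%. The members that varied by more than 10-fold, or had a 0, were Cyp1a2, Mup3, Cyp2b9, Cyp3a41a, A1bg and Sult2a1. Mup3, a major urinary protein, was at 1.15% of Alb in the lowest of the 5 mice and at 14.7% in Ctrl1. Across the 56 genes, log2(CPM + 0.1) correlated between these mice with Pearson's r of 0.634 to 0.956 (10 pairs, median 0.888), and without the sex-biased members and Mup3 (51 genes) with 0.842 to 0.964 (median 0.91). These are correlations across genes, which share their length and base composition between mice and are not independent replicates.

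In the 10 other mice of the first run, where the level was lower but uneven, members still moved together. AL6, Ctrl2 and LS4 had sums of 55.9, 52.5 and 27.2 CPM there and the others at most 11.04 CPM. Pairs without these mice, and pairs of other genes, were not examined. Sult2a1 had no count in these mice, and among the other 55 members the median Spearman correlation of a pair was 0.64, and 1472 of 1485 pairs were positive (99.1%), a description over 10 mice in which the members of a pair share each library and its depth. No correlation over all 20 mice is given for the members, since the mice fall into a high and a low set.

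In AL against merged controls all 56 members were called lower, beside 2.15% of all tested genes called lower there. The fitted log2FC ranged from -9.39 (A1bg) to -2.46 (Apoa1), with a median of -3.98 over members, of -3.95 without the 3 genes at 0 in all AL mice, and of 0.01 over all genes. A1bg is 1 of these 3, so its fitted value is not an estimate, and the floor gives -7.70 or lower. Cyp3a41a, at -8.05, was the lowest member with counts in AL mice. In AL against Ctrl, 54 members were called lower (background 3.71%, median log2FC -4.33), and Cyp4a10 and Sult2a1 were not. In AL against LS, 46 members were called lower (background 3.03%, median log2FC -3.49), and Apoa1, F9, F13b, Hao1, Cyp2a12, Cyp3a11, Cyp3a25, Cyp4a10, Cyp4a14 and Aadac were not. As the members were picked from these comparisons, which also share the AL mice, the counts describe the choice and say nothing further about amyloid. The count against LS rested on LS1 and LS3, since it was 23 without LS1 and 19 without LS3. Without the 5 highest mice, 30 members could be tested, and 1 (Mup3), 0 and 0 were called lower against merged controls, Ctrl and LS (background 0.661%, 1.43% and 1.36%). Those mice, all LS or Ctrl, are the highest by the level of these same genes, so the loss of member calls follows from how they were chosen. The other members passed the filter only with them.

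LS against Ctrl is the comparison that the choice of genes did not use. No member was called by edgeR's quasi-likelihood test (0 of 56, background 0.0207% called in either direction, 3 genes), 0 members had an unadjusted p under 0.05 against 5.94% of all genes, and DESeq2 also called 0. Member log2FC ranged from -1.95 (Mup3, SE 0.993) to 0.59 (Sult2a1, SE 1.59) with a median of -0.83, below 0 in 50 of 56, and the lowest FDR was 0.855 (edgeR, Benjamini-Hochberg). Alb had a log2FC of -1.07 with an SE of 1.16. The log2 of the summed level (CPM + 0.1) averaged 6.06 in LS and 4.57 in Ctrl mice, a difference of 1.49 (LS minus Ctrl, p = 0.518 by an exact permutation test, two-sided, with 330 splits). Within the first run the difference had the opposite sign, -1.72 (4 against 4 mice, 70 splits, exact permutation p = 0.229, smallest possible p 0.0286), as the 3 low Ctrl mice of the second run then drop out, and the fitted median, which has the run in the model, has that sign too. There were no LS mice in the second run. A difference between LS and Ctrl mice was thus not detectable, with 2 of 4 LS and 3 of 7 Ctrl mice in the high set.

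Female-biased and male-biased liver genes divided the high mice in another way than the groups did. The 10 female-biased genes, 4 of them members (A1bg, Cyp2b9, Cyp3a41a and Sult2a1), summed to 25.1 CPM in LS1, 22.5 in LS3, 25.98 in Ctrl3 and 14.2 in Ctrl4, to 0.394 in Ctrl1 and 0.399 in Ctrl2, to 1.08 in AL6 and to 0.398 or less in the other 13 mice. Cyp2b9, a P450 of the same list, had 0.898, 0.021, 0.571 and 0 CPM in LS1 to LS4, 0.083 in Ctrl1, 1.27 in Ctrl3 and 0.916 in Ctrl4. The 12 male-biased genes summed to 27.8 CPM in Ctrl1 and 6.69 in Ctrl2, to 3.10 in LS4 and 2.21 in AL6, and to 0.874 to 2.03 in LS1, LS3, Ctrl3 and Ctrl4. Mup20, a male pheromone carrier (the most abundant gene of that list), had 14.7 CPM in Ctrl1, 3.73 in Ctrl2, 1.23 in AL6, 0.963 in LS4 and 0.623 or less elsewhere. Cyp4a12a and Cyp2d9, P450 genes of male liver, had 1.99 and 4.09 CPM in Ctrl1 and at most 0.114 and 0.27 CPM in any other mouse.

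The sex-linked genes of the same hearts followed this division in some mice only. Xist, the RNA that coats the inactive X chromosome, was above the Y-linked gene Ddx3y in 8 mice (AL2 to AL4, LS2, LS3 and Ctrl1 to Ctrl3) and below it in the other 12. Ctrl1 and Ctrl2, the mice with the most male-biased liver transcripts, had Xist at 202 and 399.6 CPM. LS1 and Ctrl4, with female-biased liver transcripts, had Ddx3y at 114 and 127 CPM. LS1 and Ctrl4 also had 6.36 and 1.91 CPM of Xist, while the other 10 mice with Ddx3y above Xist had at most 1.32 CPM. Among the 8 mice with Xist above Ddx3y, Ddx3y was 2.59 CPM in LS3, 1.69 in Ctrl2, 1.01 in AL2 and 0.664 in Ctrl1, and 0.0748 CPM or less in the other 4. In LS3 and Ctrl3 heart Xist and female-biased liver transcripts went together. In LS4 the male-biased sum of 3.10 CPM stood beside a female-biased sum of 0.116 CPM, with Ddx3y at 129 and Xist at 0.732 CPM, and in AL6 both liver sums were above those of the other AL mice, with Ddx3y at 75.0 CPM. The sex-biased liver transcripts thus went with the heart's sex-linked genes in LS3, Ctrl3 and LS4 and not in LS1, Ctrl4, Ctrl1 and Ctrl2, and where the liver transcripts came from was not tested.

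**Figure D3:**
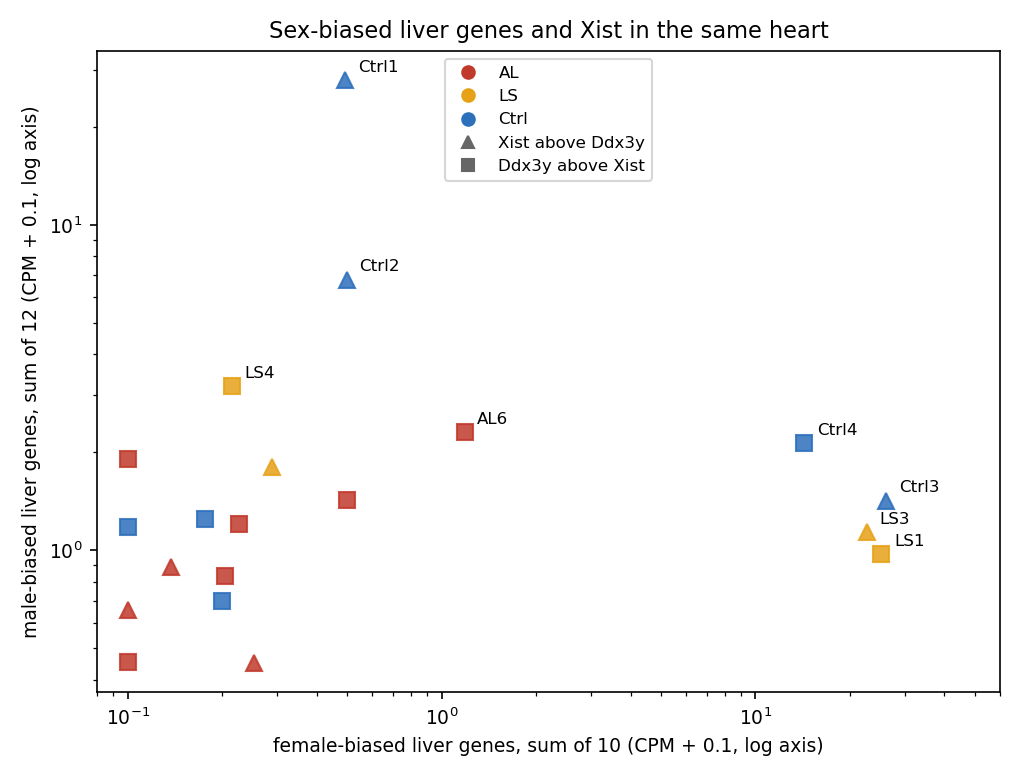
Summed level of 10 female-biased against 12 male-biased liver genes in each mouse (CPM + 0.1, log axes), coloured by group, with triangles where heart Xist exceeded Ddx3y and squares where it did not. Ctrl1 and Ctrl2 lie high on the male-biased axis as triangles, and LS1 and Ctrl4 lie far out on the female-biased axis as squares.

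Many listed liver genes outside the 56 were highest in the same mice. Of 88 other tested genes in 5 fixed lists of hepatocyte genes, 47 (53.4%) had LS1, LS3, Ctrl1, Ctrl3 and Ctrl4 above all others, beside 1.17% of all tested genes. In AL against merged controls 48 were called lower, beside 2.15% of all, and 1 (F7, log2FC 1.13) higher. Genes low elsewhere could pass the count filter through these 5 mice. The lists were chosen with earlier results known, so the counts are a description. Of these lists, 24 of 38 secreted proteins, 19 of 39 enzymes and transporters, 2 of 6 transcription factors, 5 of 6 female-biased genes (members among them) and 2 of 3 male-biased genes were called lower. The 2 most abundant genes of the secreted, enzyme and transporter, and transcription factor lists were not called lower. Trf and Vtn of the secreted proteins had log2FC of -0.02 and -0.38, Slc38a3 and Adh1 of the enzymes and transporters 0.41 and 0.39, and Prox1 and Nr0b2 of the transcription factors -0.18 and -0.26. Of the leading sex-biased genes, Cyp3a41a, A1bg and Mup20 were called lower and Cyp7b1, at -0.03, was not. Hnf4a, which encodes a master transcription factor of hepatocytes, had 1.87, 0.0421, 1.77 and 0.193 CPM in LS1 to LS4, 2.14, 0.342, 2.04 and 1.26 CPM in Ctrl1 to Ctrl4, 0 in Ctrl5 to Ctrl7 and at most 0.643 CPM in AL mice. Most like the summed level over the 20 mice by Spearman's rho were Gulo (0.944), Aldh8a1 (0.942), Ces3a (0.938), Cyp2f2 (0.938), Ugt2a3 (0.932), Mettl7b (0.931), Gjb2 (0.926), Ces1f (0.921), Onecut2 (0.92) and Rdh7 (0.916), given as a description over mice that fall into separate sets. Gulo, for one, had 0.713 to 1.14 CPM in the 5 highest mice and at most 0.362 in the others.

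No tested gene of the lists for Kupffer cells (4), sinusoidal endothelium (4), stellate cells (4) or cholangiocytes (4) had the 5 mice above the other 15, and the heart expresses several of them. Kupffer cell genes summed to 2.97 to 6.36 CPM in the 5 mice and to 1.10 to 9.92 CPM in AL mice, with the defining marker Clec4f at 0.163 to 0.748 CPM and at 0 to 0.316 CPM. Their leading genes Timd4 and Vsig4, Mrc1 and Fcgr2b of the sinusoidal list, and Rgs5 and Dcn of the stellate list were not called in AL against merged controls, while Timd4 was called lower in AL against Ctrl (log2FC -0.77) and Lrat of the stellate list (1.37) and Krt7, Krt19 and Spp1 of the cholangiocyte list were called higher (log2FC of 1.97, 1.81 and 2.00), and Krt19 and Spp1 reached 29.9 and 39.9 CPM in AL9.

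Transcripts of other abdominal organs were highest only partly in the same mice. Calls in this paragraph are those of AL against merged controls. The kidney sum was below the summed level of the 56 genes in the mice where the latter was high, and above it in 7 mice (AL3, AL5, AL7, AL8, AL9, Ctrl6 and Ctrl7). Kidney tubule genes (9 listed, 6 tested, 1 called higher in AL mice and 0 lower) summed to 22.8 CPM in AL6 and 18.8 in Ctrl3, then to 11.9 in AL7, 9.62 in LS1, 8.36 in Ctrl1 and 7.84 in Ctrl2, with 0.694 CPM in LS2 as the lowest. Kap, an androgen-regulated protein of the kidney tubule, had 13.6 CPM in AL6, 8.35 in Ctrl3, 5.73 in Ctrl1, 5.36 in AL7 and 4.89 in LS1, and Lrp2, the other leading gene, was called higher in AL mice (log2FC 1.26). Intestine and stomach genes (8 listed, 2 tested, none called) summed to 9.26 CPM in AL4, 2.36 in AL5 and at most 1.22 elsewhere. In AL4 the intestinal genes Fabp2, Vil1 and Lct had 5.38, 2.75 and 1.12 CPM beside the high Apoa1. Exocrine pancreas genes (12 listed, 1 tested, Cela1, called higher in AL mice) summed to 4.28 CPM in LS1, where Amy2a5, pancreatic amylase, had 2.08 CPM, and to at most 1.86 CPM elsewhere. Lung epithelium genes (8 listed, 2 tested, none called, led by Napsa and Ager, of which Ager was called higher against LS) reached 7.24 CPM in AL6 and 3.89 in Ctrl3. Skeletal muscle genes (6 tested, led by Mybpc2 and Tnni2, 2 called higher) reached 140.8 CPM in AL9. Of thymus and lymphoid genes (3 tested, led by Jchain and Ms4a1) Jchain was called lower, with a log2FC of -2.08 and 3.28 and 3.21 CPM in Ctrl1 and Ctrl2. Of the 10 cardiomyocyte genes, led by Myh6 and Myl2, 1 was called higher, and 0 of the 5 sex-linked genes were called. The part of these other organs in the levels of Apoa1, Fabp1 and Cps1 was not tested.

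**Figure D4:**
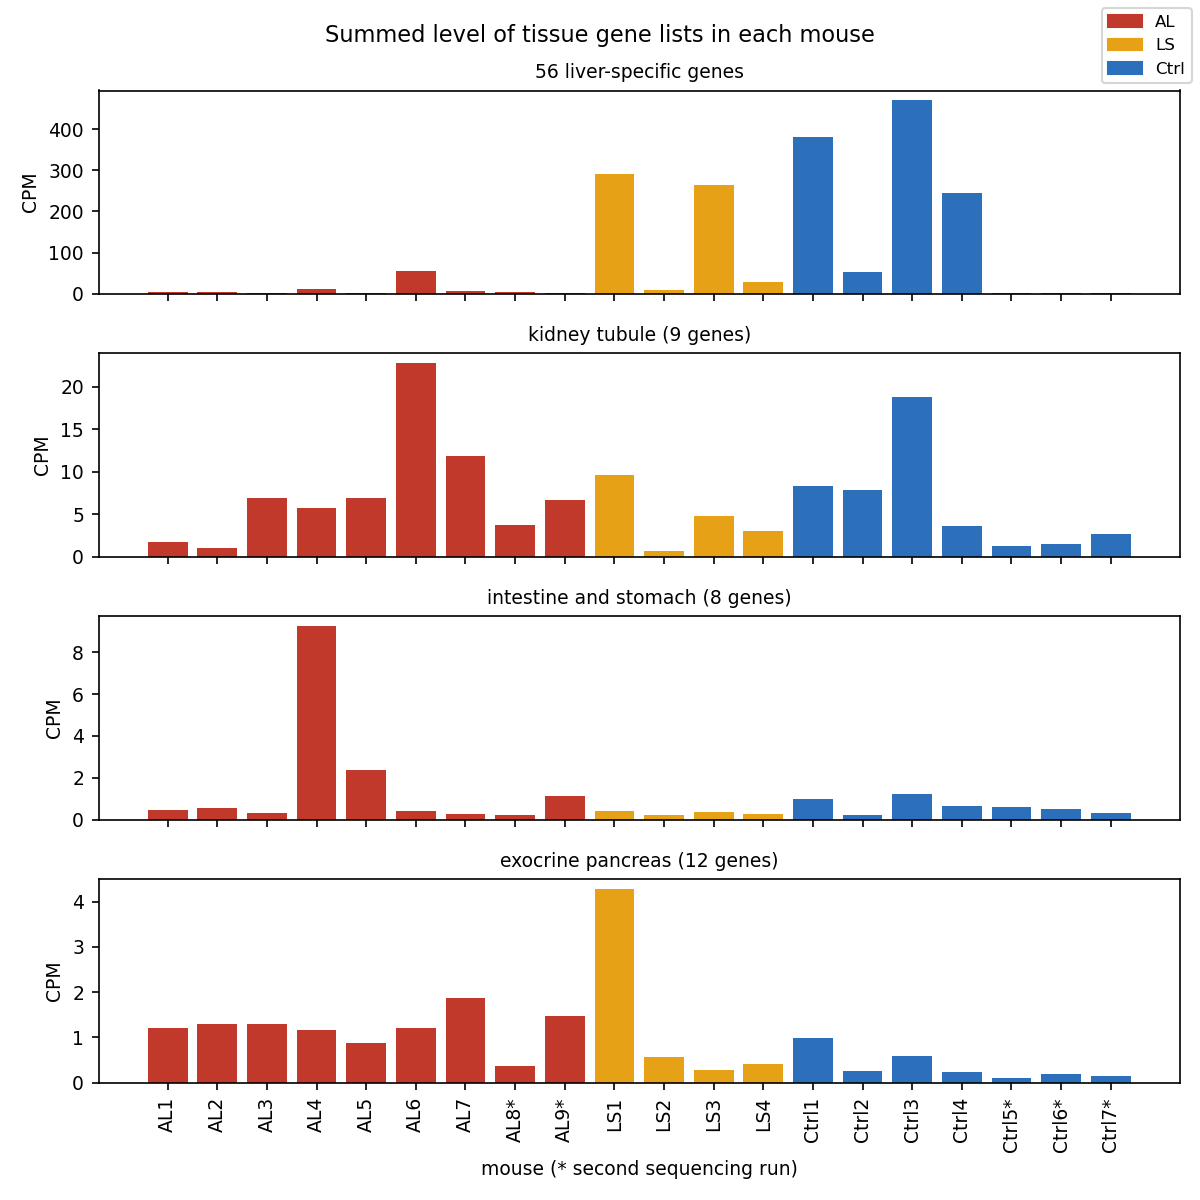
Summed level in CPM of the 56 liver-specific genes and of the kidney, intestine and stomach, and pancreas lists, 1 bar per mouse, coloured by group, with an asterisk for the second sequencing run. The liver sum peaks in Ctrl3 (470.3 CPM), the kidney sum in AL6 (22.8 CPM), the intestine and stomach sum in AL4 (9.26 CPM) and the pancreas sum in LS1 (4.28 CPM).

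Liver genes made up a large part of what the group comparison called lower. Of 311 genes called lower in AL against merged controls, the 56 members were 18%, and members and other listed liver genes together were 104 (33.4%). Against Ctrl they were 106 of 537 (19.7%) and against LS 68 of 439 (15.5%). With the mean log2 CPM of the 56 genes added to the model as a covariate, 532 genes were called in place of 707, of which 110 in place of 311 were lower in AL mice and 422 in place of 396 higher. Of the 255 lower calls that were not members, 82 were among those called with the covariate, and of the 396 higher calls 244. The mean log2 CPM was -4.08 to -1.22 in AL mice and -4.09 to -3.99 in Ctrl5 to Ctrl7. It was above 0 only in Ctrl1, Ctrl3, Ctrl4, LS1 and LS3. The covariate thus ran partly with the group and can take up group differences of any gene. Whether the lost calls came from liver RNA was not tested. Without the 5 highest mice, 440 genes were called, 98 lower and 342 higher, and these held 78 of the 255 and 225 of the 396, in a fit of 15 mice in place of 20. All mice left out were LS or Ctrl and were chosen by the level of the members. With the covariate 0, 1 and 0 members were called lower against merged controls, Ctrl and LS, which follows from how it was built. The background was 0.76%, 2.87% and 2.61%. Against Ctrl 2 members were called in all, 1 of them lower. The share of calls that were lower moved from 44% to 20.7% against merged controls. It went from 47.5% to 42.8% against Ctrl and from 34.1% to 35.6% against LS. In AL against Ctrl 416 genes were called lower with the covariate, 237 of them among the 537 called without it, and in AL against LS 378 were, 261 of them among the 439. LS against Ctrl had 3 called genes in each of the 3 fits.

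**Figure D5:**
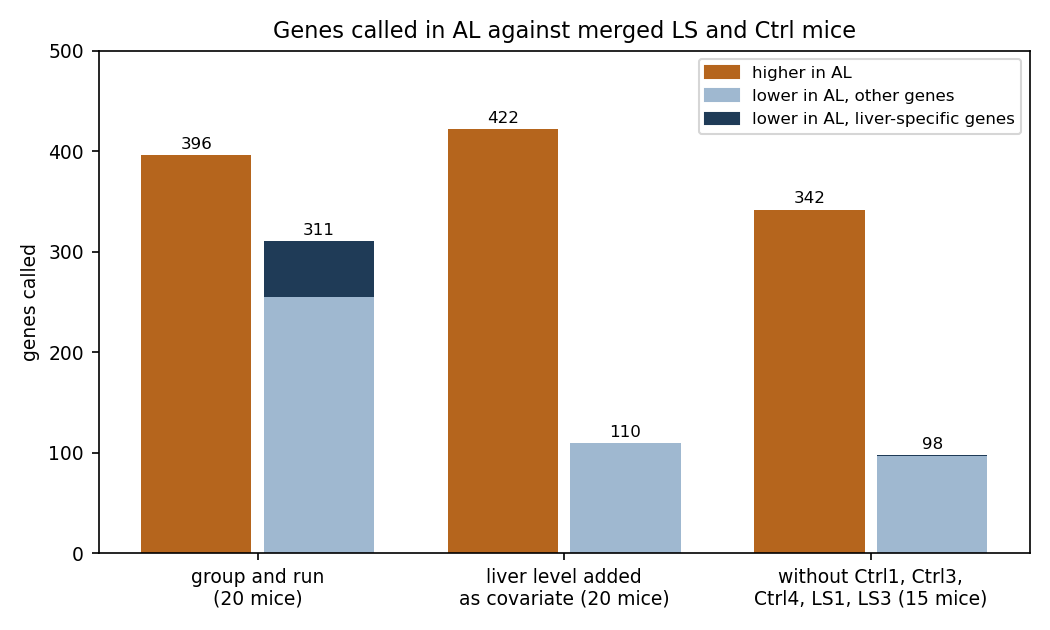
Number of genes called in AL against merged LS and Ctrl mice, higher (brown) and lower (blue, with the 56 liver-specific genes in dark blue), with group and run in the model, with the liver level as a further covariate, and without the 5 highest mice. Lower calls go from 311 to 110 and 98, and higher calls from 396 to 422 and 342. The covariate and the choice of the 5 mice both come from the level of the 56 genes.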

How the data were processed

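RNA of the heart apex of 20 mice was sequenced as stranded, paired-end mRNA libraries in 2 sequencing runs. Per the labels and the study's methods, the authors aligned reads to GRCm38 with STAR and obtained estimated counts per gene with Salmon, and these estimated counts were deposited without normalization, with 14.2% of values not whole. Here they were rounded. Genes were filtered with filterByExpr (minimum count 10), scaled by TMM and tested in R 4.3.3 with edgeR 4.0.16 (quasi-likelihood test, group and run in the model, Benjamini-Hochberg adjustment). Calls needed an FDR below 0.05 together with a log2FC of 0.58 or more in either direction, and of 1 or more where LS and Ctrl mice were merged. The summed level was compared with scipy 1.17.1 by exact permutation on log2(CPM + 0.1). No per-sample column was left unused (0).

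The 56 genes and all gene lists were chosen with earlier results of these data known. Genes named are the 3 most abundant of each class, the 5 with the largest falls, the 3 with the highest AL medians, sex-biased members, the 10 genes most like the summed level, the 2 most abundant of each list and Xist. Others, such as Cyp2d9, Lct or Clec4f, were picked after their values were seen.

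Alternatives were no filter, RLE scaling, DESeq2 1.42.0, ComBat-seq (sva 3.50.0), no run term, the first run alone, a replicate block, a liver covariate, other pseudocounts, leaving out each mouse, and leaving out the 5 highest mice. The labels do not say that equal replicate numbers mark related mice, and p-values set a difference between groups against the spread between mice. The statistics were tested on simulated data.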

Additional observations from a re-analysis of the deposited data

Results flagged for a closer look

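A mouse was set apart where its gap to the nearest other mouse of its group, divided by the range of the group, exceeded Dixon's critical value. Where values are normally distributed, chance alone sets apart about 1 in 20 groups. The values here were CPM without a log, uneven and often near 0, so that share need not hold. Of 60 groups tested 23 held such a mouse, with values that are not independent because the same mice recur. AL6 stood above the other 8 AL mice in the summed level, with 55.9 CPM against 11.04 in the next mouse. The same held for Alb (21.7 CPM, next 1.88), Gc (2.93), Fabp1 (1.99), Mat1a (1.47), Bhmt (0.864), Fga (1.27), Fgb (1.0), Fgg (0.764), Cps1 (0.824), Cyp3a11 (0.844), Slco1b2 (0.643) and Cyp4a14 (0.623). Apoa1 was highest in AL4 (7.18 CPM, next 3.1) and Cyp3a41a in AL2 (0.0656 CPM, which is 3 counts). Cyp3a11 was highest in LS1 among LS mice (3.07 CPM, next 0.326), and Cyp4a14 in Ctrl3 among Ctrl mice (5.86 CPM, next 2.36).

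Of the other tissues, the kidney sum was set apart in AL6 (22.8 CPM) and Ctrl3 (18.8 CPM), the lung sum in the same mice (7.24 and 3.89 CPM), the intestine and stomach sum in AL4 (9.26 CPM) and the pancreas sum in LS1 (4.28 CPM).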

How the results depend on the processing

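The member count against LS was 46 with edgeR, 30 with DESeq2, 23 without LS1, 19 without LS3 and 52 without AL6, the ends of the range over single mice left out being 19 and 52. Leaving out single mice gave 51 to 56 members lower against merged controls, 48 to 56 against Ctrl and 0 called in LS against Ctrl. The low ends, 51 and 48, came without Ctrl3, where only 52 members passed the filter. Beside them 272 and 470 of all 14456 genes were called lower. Without Ctrl4 also 52 members could be tested. Over all genes it gave 630 to 770, 922 to 1336 and 959 to 1455 calls, and ComBat-seq gave 648 against LS in place of 1288. With the liver covariate, built from the members, 0, 1 and 0 members were called lower against merged controls, Ctrl and LS. Against Ctrl 2 members were called in all, 1 of them lower and the other higher. Against merged controls 33 of the 56 members kept a negative log2FC, and 0 were called. Of the 18 named genes followed through the alternatives, Apoa1 (log2FC 1.30), Cyp3a11 (1.08), Slco1b2 (0.96), Fabp1 (0.20) and Ttr (0.083) turned positive in that comparison. Without the 5 highest mice 1, 0 and 0 members were called lower, Apoa1 was at 0.13, and 440, 502 and 473 genes were called in all, in a fit with fewer mice. These mice were chosen by the level of the members, so the loss of member calls follows from that choice. Lower calls against merged controls then made up 22.3% of calls in place of 44%. Against Ctrl the share was 42.2% in place of 47.5%, and against LS 42.5% in place of 34.1%. The summed level of LS against Ctrl was -1.72 in the first run alone (exact permutation p = 0.229) in place of 1.49, and 0.72 to 2.44 with single mice left out (p = 0.352 to 0.792).

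With the replicate block, 51, 49 and 44 members were called lower and 0 in LS against Ctrl. Over all genes 539, 851 and 1228 were called, of which 286, 500 and 475 were lower. In LS against Ctrl 16 of the 56 members had an unadjusted p under 0.05 (edgeR), beside 963 of all 14477 genes. Mice of the same number correlated between -0.154 and 0.231 in their deviations from the means of their group and run. Mice of different numbers were not compared in this way, so whether equal numbers mark related mice was not tested. The cause of the other changes between settings was not tested either. Depth limits single members in the second run, where 3 counts equal 0.231 to 0.356 CPM. Over 18 named genes in AL against merged controls, 467 values under an alternative kept their direction and side of the threshold, 42 were no longer called and 6, those given above, changed sign.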
